A study of Rattus norvegicus with 24 samples.

Results

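Rotenone, a lipophilic inhibitor of mitochondrial complex I found in plants, was given to rats, and the left ventricle of the heart was profiled for 10 genes whose enzymes activate or remove solvents, epoxides and reactive lipid aldehydes. The genes were Cyp2e1, Ptgr1, Gsta4, Ephx1, Ephx2, Nqo1, Cbr1, Aldh3a2, Por and Cyp1b1, which is 10 of the 22093 genes that the array measured under a single symbol. They were selected on measured differences between rotenone treated and control rats of this same experiment, so the differences below describe the selection. Counts of calls on these contrasts are given beside those of all genes wherever these were counted, and nothing is read from them. Where a gene had several transcript clusters (groups of probes for a transcript), the cluster with the highest mean over all arrays was used, which concerned Cbr1 with 3 clusters. Male RccHan Wistar rats, 7 to 8 weeks old, received diet with 0 or 400 ppm rotenone for 1, 3 or 14 days. RNA from the apex of the left ventricle was hybridised to Rat Transcriptome Arrays, 1 rat per array, with 4 rats in each of the 6 groups and 24 arrays in all. Rotenone treated rats were set against the controls of their own day. No control group matched for food intake or body weight is described and the rotenone treated rats lost weight. Direct effects of the compound therefore cannot be told apart from those of weight loss or of any change in feeding. The tissue is a mixture of cells, in which fewer cells of a type and less RNA per cell cannot be told apart.

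The 10 enzymes act on fat-soluble and reactive compounds, in part by alternative routes. Cytochrome P450 enzymes in the endoplasmic reticulum insert oxygen into fat-soluble compounds and take their electrons from cytochrome P450 reductase, the product of Por. Epoxides formed in this way, or from fatty acids, are opened to diols by the epoxide hydrolases of Ephx1 (microsomal) and Ephx2 (soluble). Reactive aldehydes and ketones such as 4-hydroxynonenal, a product of lipid peroxidation, are reduced by prostaglandin reductase 1 (Ptgr1) and carbonyl reductase 1 (Cbr1), oxidised by the fatty aldehyde dehydrogenase Aldh3a2 or joined to glutathione by the glutathione transferase Gsta4. Nqo1 reduces quinones without forming radical intermediates. These genes are best known from the liver, and several of them, Nqo1 and Ephx1 among others, are textbook targets of the transcription factor Nrf2, while Cyp1b1 is a textbook target of the aryl hydrocarbon receptor.

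Promoter windows are shown for the 3 genes with the widest rotenone differences at day 14 among those that have one, to place the values beside the sequence from which transcription starts. RefSeq windows of assembly GRCr8, reaching from 250 bases before to 50 bases after the start, were listed for 8 of the 10 genes, and not for Ptgr1 and Ephx2. The 200 bases before the start are printed 5′ to 3′ in the direction of the gene for Cyp2e1 (chr1:205269767-205269966, plus strand), Gsta4 (chr8:87947065-87947264, plus strand) and the second of the 2 listed starts of Ephx1 (chr13:95263118-95263317, minus strand). Capitals mark a TATA box core (TATAAA, on the sense strand) in Cyp2e1, the core of the xenobiotic response element (GCGTG, on either strand) in Gsta4 and the core of the antioxidant response element (TGACNNNGC, on either strand) in Ephx1. The first Ephx1 start, whose window held none of these motifs, is not shown. The widest differences do not choose between the 2 starts.
Cyp2e1: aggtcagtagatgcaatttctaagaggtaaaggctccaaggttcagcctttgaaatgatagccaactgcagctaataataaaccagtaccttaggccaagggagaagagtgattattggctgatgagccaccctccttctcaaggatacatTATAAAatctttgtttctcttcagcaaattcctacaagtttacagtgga
Gsta4: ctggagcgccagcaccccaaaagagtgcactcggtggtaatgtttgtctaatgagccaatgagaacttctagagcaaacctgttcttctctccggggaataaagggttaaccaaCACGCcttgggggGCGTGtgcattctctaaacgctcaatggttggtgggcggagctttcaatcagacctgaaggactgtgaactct
Ephx1: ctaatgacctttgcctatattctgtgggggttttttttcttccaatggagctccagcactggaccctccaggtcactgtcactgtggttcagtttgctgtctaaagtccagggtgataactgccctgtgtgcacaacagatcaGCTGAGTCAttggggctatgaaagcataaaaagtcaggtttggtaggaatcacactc
Over the whole windows, the antioxidant response element core was found in 1 of the 9 windows of these genes, that of the second Ephx1 start, at 57 bases before it and on the antisense strand, and in 12.1% of all 33469 listed rat windows. The xenobiotic response element core was found in the windows of 6 genes (Gsta4, Nqo1, Cbr1, Aldh3a2, Por and Cyp1b1), against 29.7% of all windows. The TATA box core, searched after the windows had been seen, was found in those of Cyp2e1 and Nqo1 and in 8.8% of all. No motif overlapped another in the windows shown. A match describes the letters and not the binding of a factor, and no binding was measured here.

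All values below are log2 intensities and all differences are rotenone minus control, with the standard error (SE) of a fit over the 24 arrays. A background bound of 8.44 was set at the 95th percentile of 1153 negative control probes. By their mean over 24 arrays, 6 of the 10 genes lay above this bound, as did 23.1% of all genes, and Cyp2e1, Ephx1, Nqo1 and Cyp1b1 lay below it. Array medians ran from 30.59 to 36.47 on the linear scale, and the mean correlation of an array with its own group was 0.9864 to 0.9904. All 7 measured cardiomyocyte markers were above the bound in every group and none of them was called different on any day.

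Cyp2e1, the P450 enzyme that oxidises ethanol, acetone and other small solvents, showed the widest difference of the 10. The 4 control rats of day 1 had 5.62, 5.17, 5.47 and 5.36 and the rotenone treated rats 7.05, 6.69, 7.39 and 7.58, all of them below the background bound. At day 3 the controls had 5.23, 5.36, 5.70 and 5.80 and the treated rats 8.59, 8.82, 7.13 and 7.80. At day 14 the controls had 5.57, 6.59, 5.79 and 6.17 and the treated rats 7.25, 10.42, 10.88 and 12.46. The groups did not overlap on any day, and 3 of the treated rats of day 14 stood above the bound whereas rat 1 stayed below it. The differences were 1.77, 2.56 and 4.22 ± 0.64 (SE, n = 4 against 4) at days 1, 3 and 14. Because all 12 controls lay below the bound, the day 14 difference is given as at least 3.51-fold. This sets the treated mean of 10.25 against the bound of 8.44, and the control mean was 6.03. No fold is given for days 1 and 3. The spread between treated rats of day 14 (SD 2.19) was wider than that between their controls (SD 0.45), whereas the SE assumes 1 spread for all groups.

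Por, which passes electrons to all microsomal P450 enzymes including those of Cyp2e1 and Cyp1b1, was higher on each day. At day 1 the controls had 9.03, 9.06, 9.46 and 8.90 and the treated rats 10.16, 9.88, 9.82 and 10.05. At day 3 they had 9.14, 9.35, 9.12 and 9.24 against 10.35, 10.04, 9.72 and 9.79. At day 14 they had 9.36, 9.14, 9.37 and 9.18 against 9.54, 10.40, 10.16 and 10.23. The groups were apart on every day, at day 14 by the narrow gap between 9.37 in a control and 9.54 in treated rat 1. The differences were 0.86, 0.76 and 0.82 ± 0.17, which is 1.82-fold, 1.7-fold and 1.76-fold.

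Cyp1b1, a P450 enzyme outside the liver that oxidises polycyclic hydrocarbons and oestrogens, was below the bound on all 24 arrays and gives no fold. The controls had 7.13, 7.42, 7.20 and 7.30 at day 1 and the treated rats 7.93, 7.65, 7.98 and 7.46, without overlap. At day 3 the values were 7.54, 7.36, 7.71 and 7.47 in controls and 6.92, 7.70, 7.32 and 7.56 in treated rats. At day 14 they were 7.41, 8.08, 7.97 and 7.83 in controls against 7.44, 7.02, 7.36 and 7.50. The differences were 0.49, −0.15 and −0.49 ± 0.17, so that the sign at day 14 was opposite to that at day 1, with overlap at days 3 and 14.

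For both epoxide hydrolases no treated rat overlapped the controls of its day, with Ephx1 measured wholly below the bound at days 1 and 3. Ephx2, the soluble enzyme that opens epoxides of fatty acids, had 9.24, 9.11, 9.24 and 9.25 in controls and 9.99, 9.65, 9.88 and 10.16 in treated rats at day 1. At day 3 it had 9.21, 9.24, 8.98 and 9.24 against 10.46, 10.27, 10.04 and 9.85. At day 14 it had 9.36, 9.36, 9.50 and 9.36 against 10.11, 10.11, 10.07 and 10.10, with hardly any spread among the treated rats. The Ephx2 differences were 0.71, 0.99 and 0.71 ± 0.12, or 1.64-fold, 1.98-fold and 1.63-fold, with the largest at day 3.

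Ephx1, the membrane enzyme that hydrolyses epoxides of foreign compounds, lay close to background. The controls had 7.01, 6.77, 7.03 and 6.86 and the treated rats 7.30, 7.29, 7.18 and 7.08 at day 1. At day 3 the values were 6.76, 7.04, 6.83 and 6.94 against 7.47, 7.71, 7.28 and 7.73. At day 14 they were 6.98, 7.08, 7.08 and 6.84 against 7.28, 8.62, 8.33 and 8.65, where 2 treated rats passed the bound. The differences were 0.29, 0.66 and 1.23 ± 0.20, and no fold is given because all 12 controls were below the bound. The antioxidant response element core printed above belongs to the second listed start of this gene, and which start the array's probes report was not tested.

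**Figure D1:**
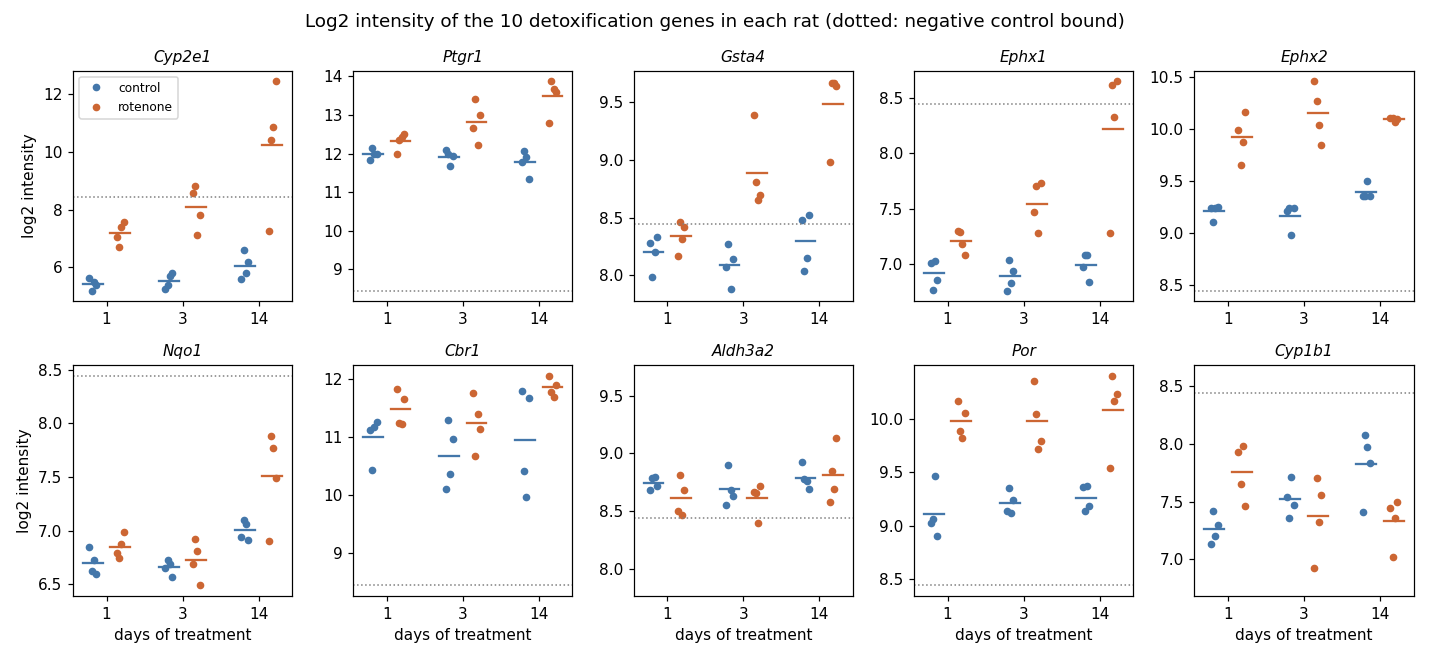
Log2 intensity (vertical axis) of each of the 10 genes in each rat by day of treatment (horizontal axis), with controls in blue, rotenone treated rats in orange, short lines at group means and a dotted line at the background bound of 8.44. Treated rats lie above all controls on every day for Cyp2e1, Ephx1, Ephx2 and Por.

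Among the enzymes that act on lipid aldehydes, Ptgr1, which reduces the double bond of 4-hydroxynonenal and of leukotriene and prostaglandin metabolites, was higher from day 3 on. At day 1 the controls had 11.83, 12.15, 11.99 and 11.99 and the treated rats 11.98, 12.34, 12.43 and 12.51, with overlap. At day 3 the values were 12.09, 11.98, 11.67 and 11.93 against 12.66, 13.40, 12.21 and 12.99. At day 14 they were 11.77, 12.07, 11.91 and 11.34 against 12.78, 13.87, 13.67 and 13.59. The lowest treated rat of day 3 and that of day 14 stood above all controls of their day. The differences were 0.33, 0.89 and 1.71 ± 0.23, or 1.25-fold, 1.86-fold and 3.26-fold, with every array well above the bound.

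Gsta4, the glutathione transferase that prefers 4-hydroxynonenal, had control values of 8.28, 7.99, 8.20 and 8.33 at day 1 and treated values of 8.17, 8.46, 8.32 and 8.42. At day 3 they were 8.07, 8.27, 7.88 and 8.14 against 9.39, 8.81, 8.65 and 8.70. At day 14 they were 8.48, 8.04, 8.15 and 8.52 against 8.98, 9.67, 9.67 and 9.64. The groups overlapped at day 1 and were apart at days 3 and 14. The differences were 0.14, 0.80 and 1.20 ± 0.17, which is at least 1.36-fold at day 3, where all controls were below the bound. At day 14, 2 of the 4 controls were below the bound and no fold is given. With values below the bound raised to it, the differences were 0.44 at day 3, no longer called, and 1.02 at day 14.

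Cbr1, which reduces quinones and carbonyls of lipids and drugs, had treated means above the control means on each day, but its controls were widely spread. Its day 14 controls had 11.80, 10.41, 9.96 and 11.67 and the treated rats 12.06, 11.78, 11.69 and 11.90. At day 1 the controls ran from 10.44 to 11.27 and the treated rats from 11.22 to 11.83, and at day 3 from 10.11 to 11.29 and from 10.68 to 11.76. The differences of 0.49, 0.57 and 0.90 ± 0.34 came with overlap on every day. The other 2 transcript clusters of Cbr1 gave 0.93 ± 0.32 and 1.09 ± 0.35 at day 14, there without overlap. The 3 clusters carry 1 symbol and were measured on the same arrays, so they are not separate evidence.

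Nqo1, the quinone reductase, was below the bound on all 24 arrays. At day 14 the controls had 6.94, 7.10, 7.06 and 6.91, and the treated rats had 7.88, 7.77 and 7.49 in rats 2 to 4 and 6.90 in rat 1, which lay below all controls. The differences were 0.15, 0.07 and 0.51 ± 0.15, with overlap on each day. Aldh3a2, which oxidises long-chain aldehydes to fatty acids, differed by −0.13, −0.08 and 0.02 ± 0.12. Its controls ran from 8.55 to 8.93 over the 3 days and its treated rats from 8.40 to 9.13, so that the groups overlapped throughout.

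**Figure D2:**
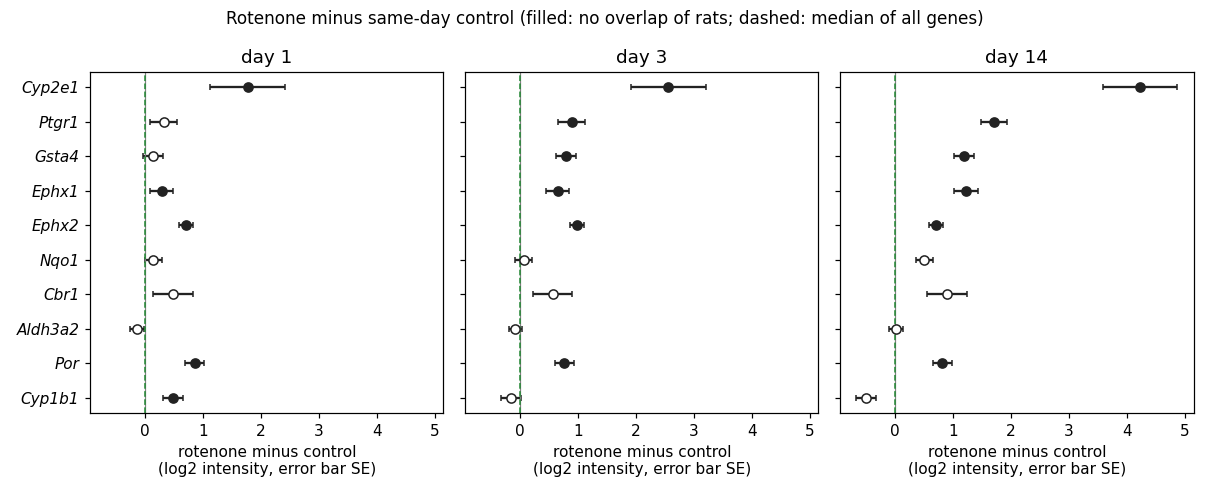
Rotenone minus same-day control in log2 intensity (horizontal axis, bar = SE) for each of the 10 genes (vertical axis) at days 1, 3 and 14, with filled points where the 4 treated and 4 control rats did not overlap and a dashed line at the median of all genes. At day 14 the differences reach from −0.49 for Cyp1b1 to 4.22 for Cyp2e1.

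Counted over the genes, treated rats stood apart from controls for 5 of 10 at day 1, 6 at day 3 and 6 at day 14, always with the treated rats higher. Among all 22093 genes the groups stood apart, in either direction, for 10.1%, 12.8% and 11.4%. Of the 5114 genes whose mean lay above the bound they did so for 22.1%, 25.3% and 21.6%. At an adjusted p of 0.05 (limma, Benjamini-Hochberg over 68842 transcript clusters) 2 of the 10 genes were called higher at day 1 (Ephx2 and Por), 3 at day 3 (Gsta4, Ephx2 and Por) and 6 at day 14 (Cyp2e1, Ptgr1, Gsta4, Ephx1, Ephx2 and Por), and none lower. The background for higher calls was 0.471%, 0.643% and 2.23% of all genes on the 3 days, and for lower calls 0.638%, 1.39% and 3.59%. Among the 5114 genes with a mean above the bound, higher calls made up 1.53%, 2.15% and 6.2%. Lower calls made up 1.9%, 2.56% and 8.96% of them. Over all transcript clusters called at day 14, 48.5% were higher, and 25% when the array medians were set equal, while the 6 calls of the listed genes at day 14 were unchanged by it and those of Por at days 1 and 3 and Gsta4 at day 3 were lost. Since the genes were chosen on these contrasts, the counts carry no weight of their own. The median difference of the 10 genes was 0.41, 0.71 and 0.86 against 0.01, 0.01 and 0.00 for all genes. The calls of Por at days 1 and 3 and of Gsta4 at day 3 were each lost in several fits that left out 1 rat. That of Por was lost at day 1 without control rat 1, 2 or 4 or treated rat 1 or 4 and at day 3 without control rat 1, 3 or 4 or treated rat 1 or 2, and that of Gsta4 at day 3 without control rat 1 or 3 or treated rat 1 or 2. In the fits without 1 rat the Por difference stayed at 0.79 to 0.98 at day 1 and 0.64 to 0.85 at day 3. That of Gsta4 at day 3 stayed at 0.63 to 0.88. With only the 8 arrays of day 14 in the fit, the calls of Cyp2e1, Gsta4, Ephx1 and Por at that day were lost. Those of Ptgr1 and Ephx2 were kept. With the 8 arrays of day 1 or of day 3 alone, Cyp2e1 was called and Ephx2, Por and Gsta4 were not. Calls were gained for Ptgr1 without treated rat 3 of day 3, for Nqo1 without treated rat 1 of day 14 and, as lower, for Cyp1b1 without control rat 1 of day 14.

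Rat 1 of the rotenone group at day 14 had the lowest value of its group for 7 of the 10 genes, namely Cyp2e1, Ptgr1, Gsta4, Ephx1, Nqo1, Aldh3a2 and Por, and the highest for Cbr1. For Ephx2 it had 10.11, level with the other treated rats. Its array had a median intensity of 36.34, near the highest of the 24, and a mean r with its group of 0.9864, the lowest of the 24 together with 1 other array. The part of the array in these low values was not tested. Without this rat the day 14 differences were 5.22 instead of 4.22 for Cyp2e1, 1.94 instead of 1.71 for Ptgr1, 1.54 instead of 1.23 for Ephx1, 1.37 instead of 1.20 for Gsta4, 1.00 instead of 0.82 for Por and 0.71 instead of 0.51 for Nqo1. The Ephx2 difference was 0.70 instead of 0.71 and that of Cbr1 0.83 instead of 0.90. At day 3, treated rat 3 was the lowest of its group for 6 genes, Cyp2e1, Ptgr1, Gsta4, Ephx1, Aldh3a2 and Por.

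**Figure D3:**
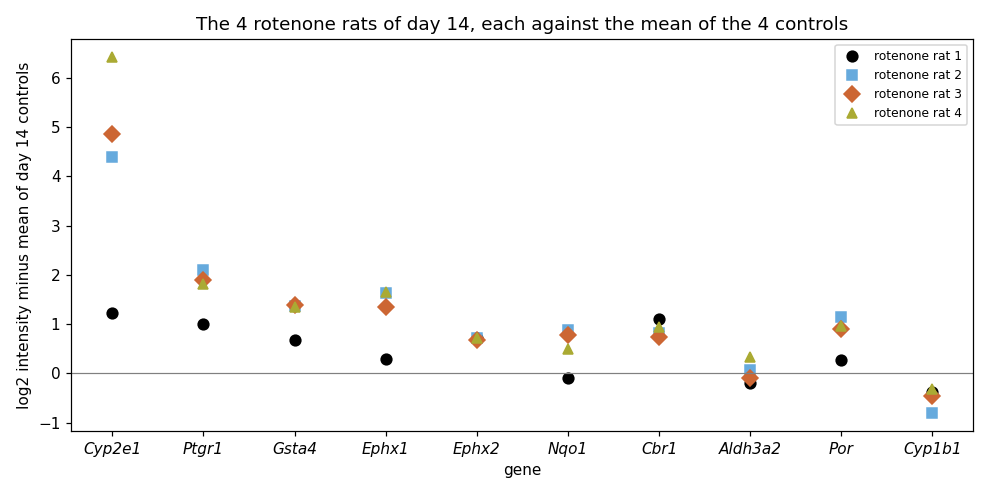
Log2 intensity of each of the 4 rotenone treated rats of day 14 minus the mean of the 4 controls of that day (vertical axis) for the 10 genes (horizontal axis). Rat 1, in black, is the lowest treated rat for 7 genes, is level with the others for Ephx2 and is the highest for Cbr1.

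Across the 24 arrays the genes whose pattern was most like that of Cyp2e1, among 5489 genes with a group mean above the bound, were Cirbp (Pearson r 0.949), Slc3a2 (0.941), Fdft1 (0.932), Eif4b (0.931) and Vezt (0.929). For Ptgr1 they were Cd63 (0.918), Cirbp (0.913), Dbp (0.906), Cyp2e1 (0.894) and Cnksr1 (0.892). These values describe the arrays, which share the treatment and the day. After group means were removed, Cyp2e1 and Ephx1 still varied together between rats (r 0.804), more than Cyp2e1 and Ptgr1 (0.577) or Cyp2e1 and Ephx2 (0.205), over the same 24 arrays. Genes outside the list followed Cyp2e1 in the same way, Cirbp with 0.856, Fdft1 with 0.823, Slc3a2 with 0.765, Vezt with 0.738 and Eif4b with 0.711. Cyp2e1 varied most among the treated rats of day 14 (SD 2.19), so these rats weigh most in its r.

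Contrasts between control groups were not used to select the genes, and they show the change over the study without rotenone. None of the 10 genes was called between control day 14 and control day 1 or between control day 3 and control day 1, and 0% of all genes (limma, 0 of 22093) were called in either. At an unadjusted p under 0.05 the first contrast held 1 of the 10 genes, Cyp1b1, and 1665 of all genes, and the second contrast held 0 of the 10 and 492 of all genes. Fits with a trend and robust variances, with array weights, on the brighter transcript clusters alone and on the mean of all rows of a gene each called 1 feature in the first contrast, and a fit without control rat 1 of day 14 called 4 transcript clusters, none of them of the 10 genes. Cyp1b1 was 0.56 ± 0.17 higher in controls of day 14 than of day 1 (adjusted p = 0.527), with values of 7.41, 8.08, 7.97 and 7.83 against 7.13, 7.42, 7.20 and 7.30. Ephx2 (0.18 ± 0.12) and Nqo1 (0.30 ± 0.15) did not overlap between these 2 control groups, the later controls being higher, as was the case in either direction for 5.96% of all genes. They missed the threshold with adjusted p of 0.791 and 0.698.

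Other genes of the same pathways were taken from 7 textbook lists of 241 genes, of which 223 were measured. The lists were drawn up with earlier results of these data known, so their counts and p-values are a description. Differences of named genes are given for the days on which they were called. A day without a call is not a day without a difference. Of the 223 genes, 3 rose and none fell at day 1, 1 rose and 3 fell at day 3, and 6 rose and 3 fell at day 14. As shares of the 223, 1.35%, 0.448% and 2.69% were higher and 0%, 1.35% and 1.35% lower on the 3 days, against 0.471%, 0.643% and 2.23% higher and 0.638%, 1.39% and 3.59% lower among all genes. The median difference of the 223 genes was 0.04, 0.03 and 0.02. Without rotenone treated rat 1 of day 14, 24 genes instead of 9 were called on that day, and 5 were called without treated rat 4 or without control rat 4. At day 3, 2 instead of 4 were called without control rat 3 or without treated rat 2, 3 or 4. With only the 8 arrays of a day in the fit, 1 gene (Sqstm1) was called at day 1 and none at days 3 and 14.

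Of 57 P450 enzymes, electron donors and flavin monooxygenases beside Cyp2e1, Cyp1b1 and Por, 8 had a mean above the bound and 1 was called on any day. This was Cyb5r3, a cytochrome b5 reductase, with 13.80, 13.47, 13.72 and 13.81 in treated and 14.13, 14.53, 14.07 and 14.14 in control rats of day 14, a fall by 0.51 ± 0.13 (adjusted p = 0.0389). That call was lost without any 1 of the rats other than treated rat 1.

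Of 32 glutathione transferases and enzymes of glutathione supply beside Gsta4, 3 rose and none fell at day 14, and none was called at days 1 and 3. Gstz1, which isomerises maleylacetoacetate in tyrosine breakdown, had 10.18, 11.39, 11.44 and 12.87 in treated and 9.82, 10.51, 9.19 and 10.01 in control rats, a rise of 1.59 ± 0.39 (adjusted p = 0.0263) with overlap. Rat 1 was again its lowest and rat 4 its highest treated value, as for Cyp2e1. Gstp1, the pi class transferase, rose by 0.80 ± 0.17 (adjusted p = 0.00906) and Gstt2, of the theta class, by 0.52 ± 0.12 (adjusted p = 0.0219) with all values below the bound. The call of Gstz1 was lost without control rat 1, 3 or 4 or treated rat 2, 3 or 4, that of Gstt2 without control or treated rat 2, 3 or 4 and with array medians set equal (adjusted p = 0.123), whereas that of Gstp1 was kept in all 8 fits.

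Of 50 aldehyde dehydrogenases, alcohol dehydrogenases and carbonyl reductases beside Aldh3a2, Cbr1 and Ptgr1, none rose on any day. Aldh1a1, which oxidises retinal and lipid aldehydes, had 8.18, 8.61, 8.64 and 8.27 in treated and 9.40, 9.48, 8.91 and 9.11 in control rats at day 3 and fell by 0.80 ± 0.14 (adjusted p = 0.00458). Aldh4a1, the mitochondrial enzyme that completes proline breakdown, was lower than in controls at day 14 by 0.70 ± 0.12 (adjusted p = 0.00224). The treated rats had 9.17, 9.26, 9.70 and 9.50 and the controls 10.14, 10.15, 9.99 and 10.17. At day 1 the treated rats had 9.35, 9.60, 9.38 and 9.44 and the controls 9.56, 9.58, 9.78 and 9.37. The controls of day 14 were thus higher than those of day 1. At day 3, where it was not called, the treated rats had 9.39, 9.03, 9.09 and 8.98. The controls of day 3 had 9.50, 9.80, 9.58 and 9.60, without overlap. Neither call was lost when a rat was left out.

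Of 37 other hydrolases and conjugating enzymes, Ugp2, which makes the UDP-glucose from which glucuronic acid and glycogen are formed, rose on all days, by 0.87, 0.61 and 0.56 ± 0.14 (adjusted p = 0.00454, 0.0417 and 0.035). Under quantile normalization the rises of Ugp2 at days 3 and 14 were 0.46 and 0.26 and no longer called (adjusted p = 0.356 and 0.571), and with array medians set equal both calls were lost as well (adjusted p = 0.105 and 0.106). Its day 3 call was lost without any 1 rat other than control rat 1, and its day 14 call without control rat 1, 2 or 4 or treated rat 2 or 4. Tpmt, which methylates thiopurines, fell at day 14 by 0.70 ± 0.14 (adjusted p = 0.00717). Among 14 efflux transporters none was called on any day.

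Of 18 sensors and regulators, Nfe2l1, a transcription factor related to Nrf2, rose at day 1 by 0.66 ± 0.11 (adjusted p = 0.004), with 10.58, 10.49, 10.19 and 10.67 in treated and 9.78, 9.79, 10.02 and 9.71 in control rats. Tiparp, an ADP-ribosyltransferase that the aryl hydrocarbon receptor induces, fell at day 3 by 0.73 ± 0.17 (adjusted p = 0.0371). Its call was lost without any 1 rat other than control rat 4 and treated rat 1. It was also lost with array medians set equal (adjusted p = 0.0637). With values raised to the bound the Tiparp difference was −0.305 (adjusted p = 0.392). Of 15 other textbook Nrf2 targets, Sqstm1, an adaptor of selective autophagy, rose by 1.29 ± 0.22 at day 1 (adjusted p = 0.00598) and 1.40 ± 0.22 at day 14 (adjusted p = 0.00115). Its treated rats had 9.73, 10.84, 11.01 and 11.20 at day 14 and its controls 9.32, 9.38, 9.37 and 9.11. Txnrd1, the cytosolic thioredoxin reductase, rose at day 14 by 0.79 ± 0.14 (adjusted p = 0.00346). At day 1, without a call, Txnrd1 had 10.07, 9.58, 9.61 and 10.27 in treated rats. The controls of day 1 had 9.34, 9.28, 9.48 and 9.25, without overlap. Me1, the malic enzyme that makes NADPH, fell at day 3 by 0.71 ± 0.12 (adjusted p = 0.00422). None of the calls of Nfe2l1, Sqstm1, Txnrd1 and Me1 was lost without a rat.

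**Figure D4:**
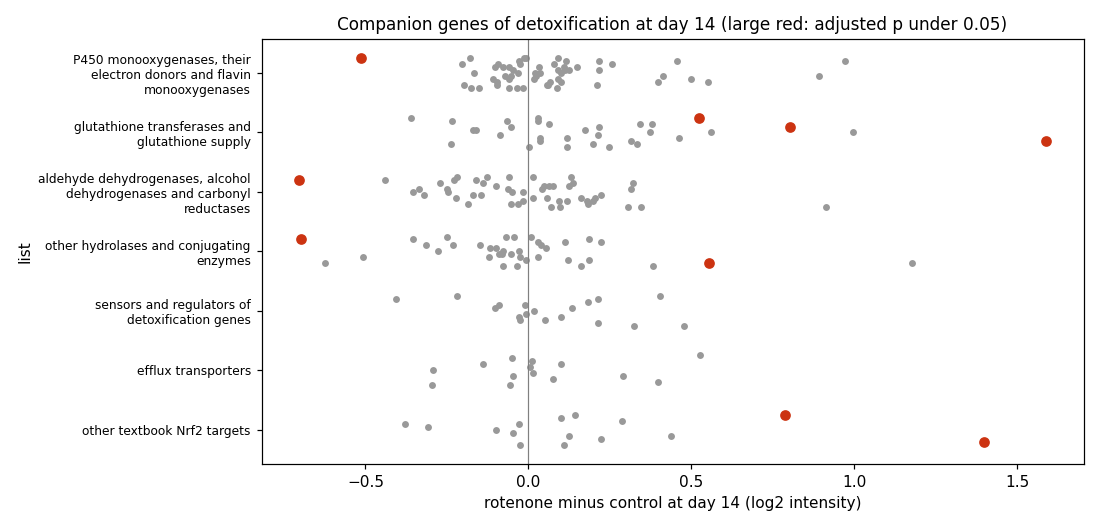
Rotenone minus control at day 14 in log2 intensity (horizontal axis) for the 223 measured genes of the 7 pathway lists (vertical axis), 1 point per gene, with the 9 called genes as large red points. The 6 that rose lie between 0.52 and 1.59 and the 3 that fell between −0.70 and −0.51.

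The test of a rotenone effect that differs between days called none of the 223 pathway genes (limma's moderated F-test) and 0.0362% of all genes. At an unadjusted p under 0.05 it held 12 of the 223, or 5.38%, against 7.75% of all genes. The smallest p in the lists was that of Nfe2l1 (0.000792, adjusted p = 0.244). The test was not read for the 10 selected genes, since their choice had used the same contrasts.

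Marker genes of other cell types are given beside these results because Cyp2e1 is abundant in liver and fat. Of 8 measured hepatocyte markers none had a mean above the bound and none was called on any day, with a summed intensity of 391 to 620 in control and 438 to 705 in treated rats. Alb (albumin) stayed below the bound on all 24 arrays. Of 8 white adipocyte markers none had a mean above the bound, Adipoq (adiponectin) among them on all 24 arrays, and 1 was called higher on each day, Lipe (hormone-sensitive lipase), by 0.76, 0.89 and 0.63. The summed intensity of the 8 was 473 to 515 in control and 569 to 797 in treated rats. Lipe was the brightest of the 8 in each group, so it weighs most in this sum. The median difference of the 8 was 0.118, 0.006 and 0.029 on the 3 days, and that of Adipoq −0.118, 0.01 and 0.175. Fibroblast markers were called lower for 4 of 7 at day 3 and 3 of 7 at day 14, and erythroid markers for 3 of 6 at day 3 and 6 of 6 at day 14. The part of these shifts in the values of the detoxification genes was not tested.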

How the data were processed

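Total RNA (300 ng) from 30 mg of left ventricle apex was run by the authors on Affymetrix Rat Transcriptome Array 1.0 chips. The deposited values are linear intensities per transcript cluster, made by the authors with GC correction, a signal space transformation and then robust multi-array averaging (RMA). Its versions and genome build were not given in the sources used here. More rats were assigned to each group than were arrayed. The precision is limited by 4 rats per group.

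Intensities were converted to log2 without filter or pseudocount. Of 70580 rows, 1738 control probes were left out and 68842 tested, of which 23446 carried 1 symbol (22093 genes). Differences were fitted with limma 3.58.1 in R 4.3.3, with 6 group means over all 24 arrays, and Benjamini-Hochberg adjusted p-values. Where all rats of a control group lay below the 95th percentile of the negative controls, the fold is a lower bound computed against it. The script was tested on simulated data.

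The 10 genes and the pathway and marker lists were chosen with earlier results of these data known. Named pathway genes are up to 4 called genes per list with the smallest p. Genes alike to Cyp2e1 and Ptgr1 are the 5 with the highest r. Pairing by rat number was checked: deviations of same-numbered rats correlated at −0.173 to 0.122, so the numbers were not treated as pairs. Alternatives were other scalings, filters, variances, weights, a replicate block, a 1.8-fold minimum, a version of the study's factorial test and each rat left out. Plots were made in matplotlib 3.10.9 under Python 3.11.15.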

Additional observations from a re-analysis of the deposited data

Results flagged for a closer look

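In 138 groups of 4 rats (10 selected and 13 pathway genes in 6 groups), 8 (5.8%) held a rat far from the other 3, where chance gives about 5%. Gsta4 had 8.98 in treated rat 1 of day 14 against 9.64 to 9.67 in the other rats of that group. Gstp1 had 9.80 in the same rat against 10.49 to 10.63. Ephx2 had such a value in each control group, 9.11 in rat 2 of day 1 against 9.24 to 9.25, 8.98 in rat 3 of day 3 against 9.21 to 9.24, and 9.50 in rat 3 of day 14 against 9.36 in the other 3, all of which lay below the treated rats of their day. Gstp1 had 10.26 and Sqstm1 10 in treated rat 2 of day 3, against 10.01 to 10.05 and 9.49 to 9.52 in the others. Cyb5r3 had 14.53 in control rat 2 of day 14 against 14.07 to 14.14.

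The rotenone difference of Cyp1b1 had opposite signs at days 1 and 14. All 4 treated rats of day 1 were above the mean of their controls and all 4 of day 14 below that of theirs, and the difference at day 14 minus that at day 1 was −0.99. This change between days was not tested, the values lie below the background bound, and the controls of day 14 were themselves 0.56 above those of day 1.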

How the results depend on the processing

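Differences of called genes were recomputed under equal medians, quantile normalization, the bound, the arrays compared alone, the replicate block and without each rat, and those of the 10 genes also with the mean of all rows. They kept their sign there, except that raising to the bound gave 0 for Gstt2 at day 14. Counts are given in the order days 1, 3 and 14. The 10 selected genes gave 2, 3 and 6 calls in the fit reported. Over all 68842 transcript clusters it called 137, 200 and 964 higher and 200, 378 and 1025 lower. With array medians set equal they gave 1 at day 1 and 1 at day 3. That fit called 80 and 101 clusters higher and 164 and 264 lower on those days. With only brighter rows tested, with array weights and with the mean of all rows of a gene they gave 5 at day 3. Of all features, these fits then called 511 of 34421, 319 of 68842 and 492 of 22093 higher. The lower calls were 700, 479 and 734. With only the arrays compared they gave 1, 1 and 2. Those fits called 36, 39 and 31 clusters higher and 32, 84 and 87 lower. With a minimum of 1.8-fold they gave 1 at day 1 and 1 at day 3, and calls over all features were not counted there. Leaving out 1 rat gave 1 to 2, 1 to 4 and 6 to 7. The clusters called higher were then 71 to 121, 98 to 180 and 354 to 1759. Those called lower were 101 to 161, 190 to 323 and 531 to 1466. Since this background moves with the fit, the counts of the 10 genes cannot be compared between fits. The pathway genes gave 3, 4 and 9 calls. With array medians set equal and with values raised to the bound they gave 2 at day 3, and under quantile normalization 14 at day 14. With brighter rows alone they gave 7, 9 and 18, and with the mean of all rows 8, 13 and 21, where fewer features were tested. With only the arrays compared they gave 1, 0 and 0. With a minimum of 1.8-fold they gave 0 at day 3 and 2 at day 14. With a version of the methods' factorial test they gave 0 at day 3 and 1 at day 14. Leaving out 1 rat gave 3 to 4, 2 to 4 and 5 to 24. For the control contrasts of the 10 genes and the difference between days of the pathway genes the count was 0 to 0 over the rats left out and 0 under each other alternative run for them. The factorial test was not run for the control contrasts, nor were the factorial test, the 1.8-fold minimum and the arrays compared alone for the difference between days. Where no construction is named, the cause was not tested.

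The rat number as a replicate block gave 2 calls of the 10 genes at days 1 and 3 and 6 at day 14, and 3, 2 and 8 of the pathway genes. Over all clusters it called 122, 175 and 843 higher and 175, 344 and 951 lower. Own-numbered rats correlated best in 1 of 12 cases, so the block is not a pairing. A version of the methods' factorial test required a treatment effect, or one that differed between days. It also required a Kruskal-Wallis test per day and the 1.8-fold minimum. The methods' factor of time alone was left out, and calls over all features were not counted. This version called Cyp2e1 and Por at day 1, Cyp2e1, Ptgr1 and Ephx2 at day 3, and Cyp2e1, Ptgr1, Gsta4 and Ephx1 at day 14. With values raised to the bound, the day 14 difference of Cyp2e1 was 2.11 and those of Ephx1, Nqo1 and Cyp1b1 at day 14 were 0.10, 0 and 0. Most variances are then 0, and the adjusted p-values of that fit are not reliable. Signal over background limits Cyp2e1, Gsta4 (11 of 24 arrays above the bound, day 3 difference 0.44 after raising), Ephx1, Nqo1 and Cyp1b1, whose differences are partly or wholly measured below the bound.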
